A study of Mus musculus with 15 samples.

Results

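Myc and 35 genes of ribosome production were described in ear tissue of mice with PMA-induced inflammation. These 36 genes, out of 48795 gene identifiers in the count files, were a list of symbols taken as given, and 36 of 36 were found and measured, among the 14991 genes with enough reads to be tested. The 15 libraries were made from polyA RNA of female ears at an age of 5 weeks and fall into PMA_1002 (n = 6), PMA_ethanol (n = 4) and Control (n = 5). PMA is a phorbol ester, a skin irritant acting through protein kinase C, and PMA_1002 names its use with the innate defense regulator peptide that the study tested against sterile inflammation. The labels of the PMA_1002 libraries do not name ethanol, so the peptide and any difference in vehicle cannot be told apart, and Control carries the treatment label control with nothing further. The sources used here give no dose, time or mouse strain, and every group carries the same label of a PMA ear inflammation model. Nothing in the labels ties each library to an animal of its own, so the p-values speak of the spread among these samples, which may be technical.

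Ribosomes are assembled in the nucleolus, where RNA polymerase I transcribes the ribosomal RNA precursor. Small nucleolar ribonucleoproteins (snoRNPs) guide its chemical modification, and assembly factors cut and fold it with ribosomal proteins into the small and large subunits. Myc is a transcription factor that binds DNA as a dimer with Max and is known to raise many genes of this pathway. In skin, ribosome production is known to be high in growing and dividing keratinocytes.

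All 36 genes were higher in PMA_ethanol than in Control ears, as were 32.5% of all tested genes. The same count, 36 of 36, was higher in PMA_1002 than in Control ears, against 28.4% of all tested genes. Most rose 2-fold or more with PMA_ethanol. Between PMA_1002 and PMA_ethanol the differences were small: 18 of the 36 genes were lower in PMA_1002 (18.0% of all tested genes were), none by as much as 1.5-fold (9.20% of all tested genes were), 0 were higher in edgeR's test, and Myc itself was not among the genes that passed. The map of all 36 genes in all libraries shows the step between the 5 Control libraries and the other 10.

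**Figure D1:**
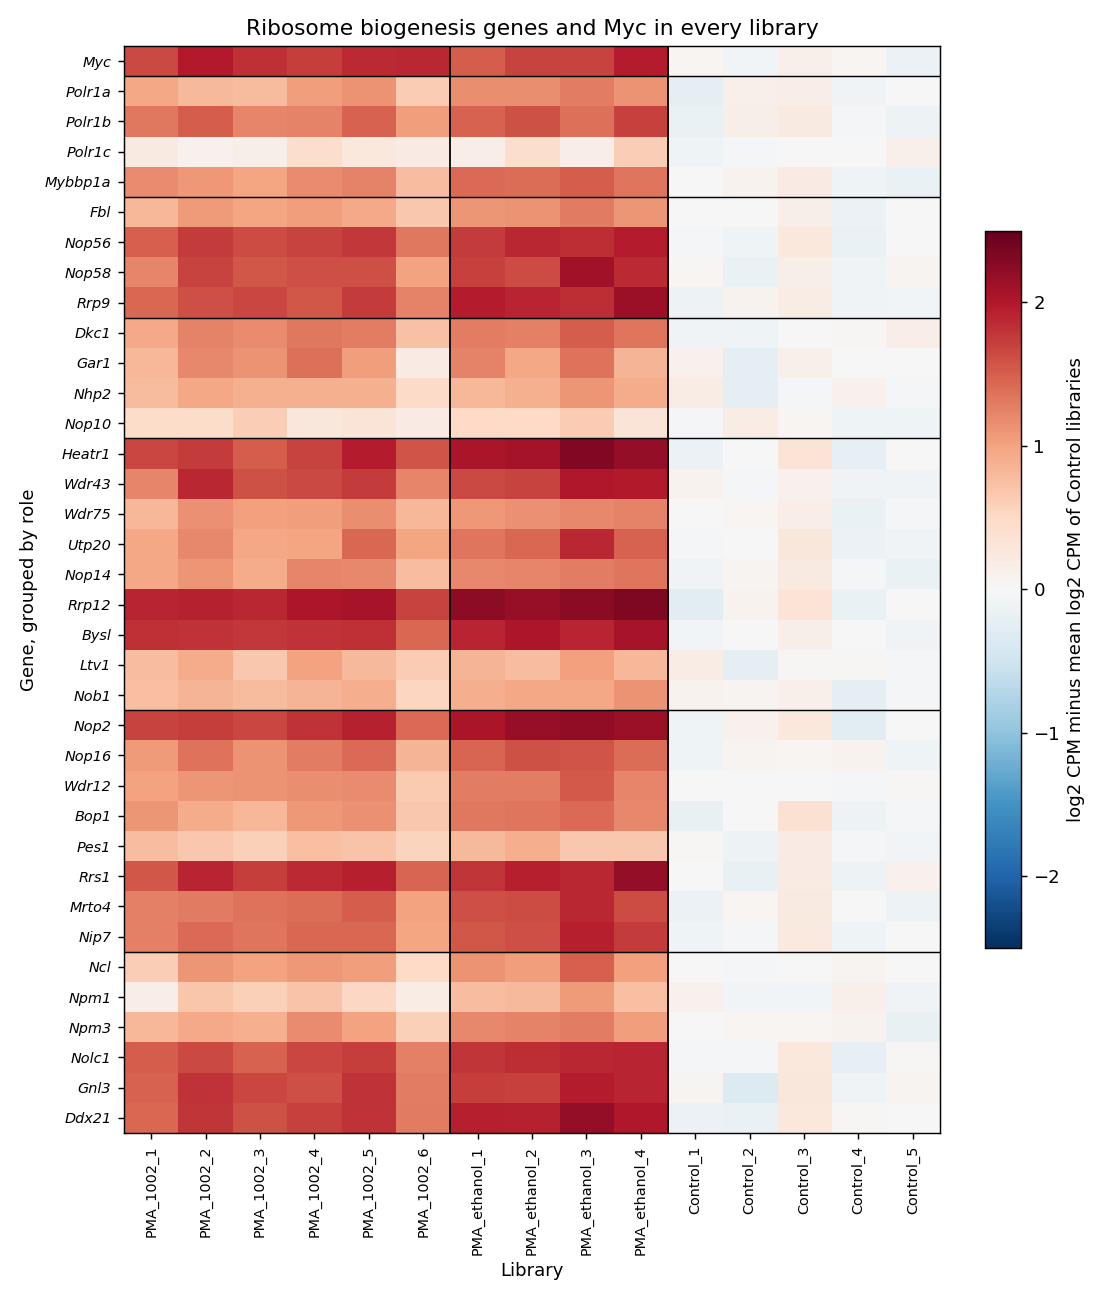
Each row is a gene, grouped by role, and each column a library of PMA_1002, PMA_ethanol or Control; colour gives log2 CPM minus the mean log2 CPM of the Control libraries. Control columns stay near 0, PMA_ethanol columns are the reddest for most genes, and PMA_1002 library 6 is the palest of its group for 30 of the 36 genes.

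Levels are CPM, read counts scaled to a common library size with TMM factors, and fold changes are log2 values from edgeR's quasi-likelihood test with Benjamini-Hochberg adjustment over all 14991 tested genes. A gene is said to pass, rise or fall where its adjusted p was under 0.05. The deepest library, PMA_1002 library 5, had 28585995 reads in genes, and the shallowest, PMA_ethanol library 3, had 2656680. In whole tissue, fewer cells of a type and less RNA per cell cannot be told apart. Summed over the 36 genes, levels were 4134 to 5597 CPM in PMA_1002, 5855 to 6889 CPM in PMA_ethanol and 2239 to 2496 CPM in Control, and these ranges did not overlap. The lowest PMA_1002 value, 4134 CPM, was in library 6, which was the lowest of its group for 30 of the 36 genes. The highest PMA_ethanol value, 6889 CPM, was in library 3, the shallowest of all, which was the highest of its group for 22 genes. Ncl weighed most in these sums, with means of 1041 CPM in PMA_1002, 1262 in PMA_ethanol and 553 in Control. In PMA_ethanol library 3 it had 1564 CPM. Control library 3 was the highest of its group for 26 genes.

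PMA_ethanol versus Control asks how these genes differed between ears with PMA and ethanol and control ears. The Control label names no vehicle, so PMA and ethanol cannot be told apart in this comparison. Of the 36 genes, 36 were called higher, against 32.5% of all tested genes called higher and 35.9% called lower. The median log2 fold change of the 36 was 1.46, against -0.07 over all tested genes, and single values ran from 0.37 for Polr1c to 2.24 for Rrp12. The fold was at least 1.5 for 34 genes, for which the share over all tested genes was 22.3%. At least 2-fold was reached by 29 genes and at least 4-fold by 4: Rrp12, Heatr1, Nop2 and Ddx21. Gar1, the lowest of the 29 at 1.10, stood above 87.3% of all tested genes in this value, and Rrp12 above 95.2%. For all 36 genes every PMA_ethanol library lay above every Control library, a pattern seen in 28.2% of tested genes. Under the other scaling most unlike TMM, which uses the upper quartile, 35 of 36 were called higher, Polr1c being the exception.

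Myc lies at chr15:61985391-61990374, plus strand (GRCm38). It had 218, 249 and 274 CPM as the lowest, median and highest of the 6 PMA_1002 libraries, 199, 224, 224 and 271 CPM in PMA_ethanol libraries 1 to 4, and 71.3, 66.3, 75.3, 71.2 and 62.6 CPM in Control libraries 1 to 5. Every PMA_1002 and PMA_ethanol library was more than 2-fold above the highest Control library, while PMA_1002 and PMA_ethanol overlapped. The log2 fold change with PMA_ethanol over Control was 1.73 (SE 0.09, edgeR adjusted p = 5.39e-11), a 3.31-fold rise, and with PMA_1002 over Control it was 1.83 (SE 0.09, edgeR adjusted p = 4.54e-11). Myc was the only one of the 36 genes with a higher mean in PMA_1002 than in PMA_ethanol, by a log2 value of 0.10 (SE 0.09, edgeR adjusted p = 0.387), which did not pass. The interval of that difference (95% interval -0.08 to 0.29) includes a lower as well as a higher level in PMA_1002. In PMA_1002 library 6, where most of the other genes were lowest, Myc stood at 258 CPM, the second highest of the group.

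**Figure D2:**
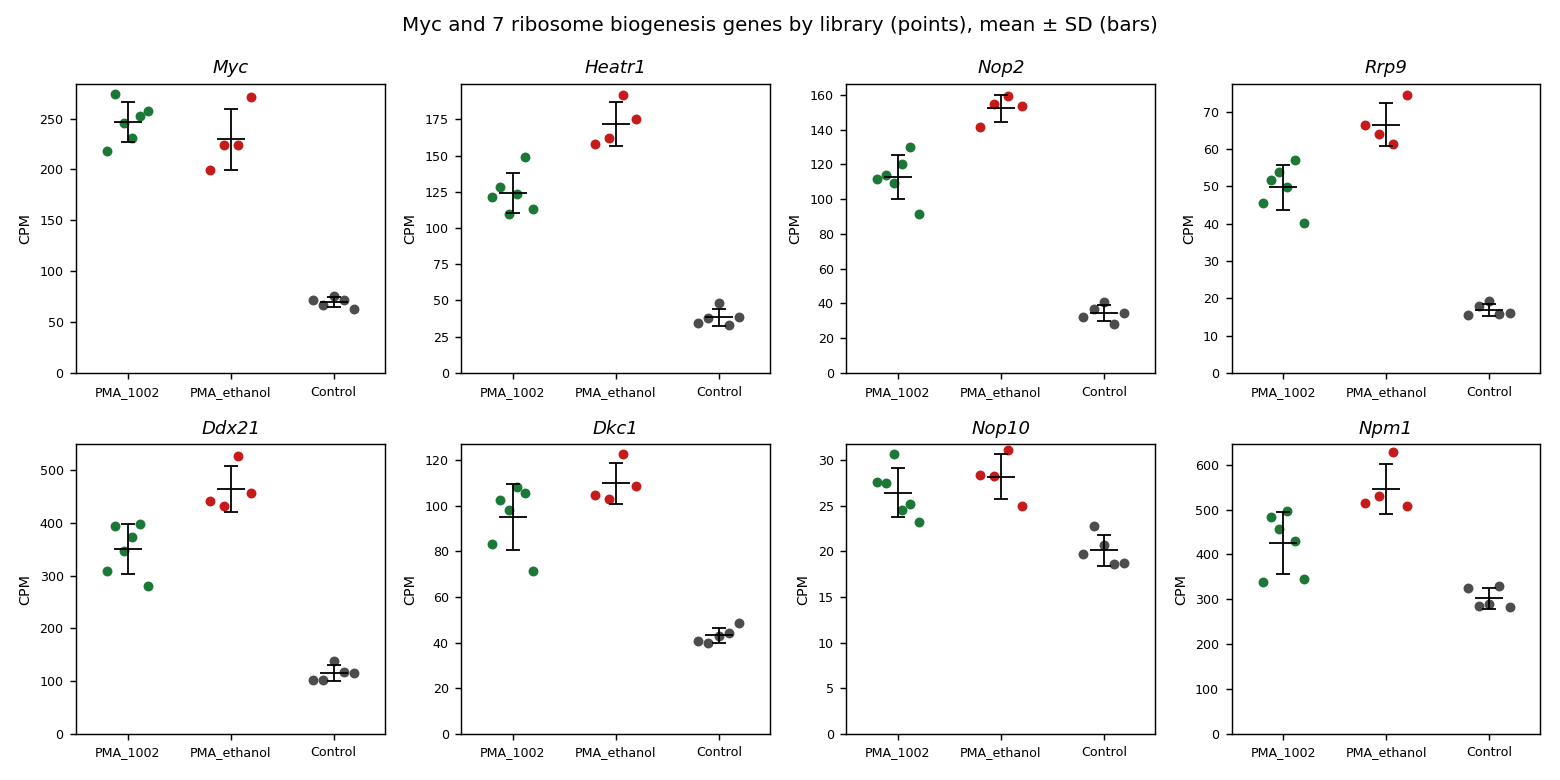
CPM (y axis) of Myc and 7 ribosome biogenesis genes in each library (points) with mean ± SD (bars), for PMA_1002, PMA_ethanol and Control. Myc overlaps between PMA_1002 and PMA_ethanol, whereas Heatr1, Nop2, Rrp9, Ddx21 and Npm1 in PMA_1002 lie below every PMA_ethanol library, and Dkc1 and Nop10 overlap.

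The letters CACGTG are the E-box to which Myc and Max bind as a dimer, and promoter windows of the genes were searched for them because Myc and the other genes were high in the same libraries. RefSeq windows (GRCm38.p6), from 250 bases before to 50 bases after a start site, were at hand for 30 of the 36 genes, and 6 of these 30 (20%) held the motif. It reads the same on both strands. The share was 19.2% among 104 other genes of assembly, RNA polymerase I and snoRNPs with a window, 11.2% among all tested genes with one, 12.7% among tested genes called higher with PMA_ethanol and 10.2% among those called lower. The 6 stretches of 30 bases that hold it are shown 5′ to 3′ on the gene's strand, with the motif in capitals.
Mybbp1a: aagtgactgtcttctgagccCACGTGtttg
Wdr43: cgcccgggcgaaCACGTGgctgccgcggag
Utp20: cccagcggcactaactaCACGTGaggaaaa
Ltv1: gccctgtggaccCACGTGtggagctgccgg
Nop2: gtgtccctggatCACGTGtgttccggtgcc
Pes1: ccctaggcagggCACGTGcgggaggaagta
They lie at chr11:72441347-72441376 on the plus strand for Mybbp1a, chr17:71616220-71616249 on the plus strand for Wdr43, chr10:88826765-88826794 on the minus strand for Utp20, chr10:13193092-13193121 on the minus strand for Ltv1, chr6:125131811-125131840 on the plus strand for Nop2 and chr11:3963965-3963994 on the plus strand for Pes1. In Nop2 the motif begins 60 bases before the start site, and in the other 5 genes it begins 2 to 40 bases after it. The 6 genes with the motif had log2 fold changes of 0.77 to 2.13 with PMA_ethanol over Control (median 1.47), and the 24 with a window and no motif had 0.37 to 2.14 (median 1.42). The ranges overlap almost fully, and a match of letters is a description of the window, not a bound site.

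RNA polymerase I and its regulators were represented by 4 genes, all higher with PMA_ethanol (log2 fold changes 0.37 to 1.54, with the highest value that of Polr1b). Polr1a and Polr1b, the 2 largest subunits of the enzyme, rose by 1.18 and 1.54. Polr1c, a subunit shared with RNA polymerase III (chr17:46243920-46248054, minus strand), had 34, 36.7 and 42.6 CPM as the lowest, median and highest of the 6 PMA_1002 libraries, 35.5, 42.9, 35.3 and 48.2 CPM in PMA_ethanol libraries 1 to 4, and 29.1, 30.5, 31.9, 31.9 and 34.4 CPM in Control libraries 1 to 5. Its groups were close: the lowest PMA_ethanol library was just above the highest Control library, and PMA_1002 overlapped both. Its log2 fold change with PMA_ethanol over Control was 0.37 (SE 0.10, edgeR adjusted p = 0.00372), the smallest of the 36, and that with PMA_1002 over Control was 0.23 (SE 0.09, edgeR adjusted p = 0.0401). The first was lost under upper-quartile scaling, at 0.13 (edgeR adjusted p = 0.269). The second was lost there too, at 0.07 (edgeR adjusted p = 0.529), and when any one of Control libraries 1 to 4 or PMA_1002 libraries 4 and 5 was left out (0.19 to 0.23, edgeR adjusted p from 0.0636 to 0.0936). Mybbp1a, a nucleolar protein that associates with RNA polymerase I (chr11:72441355-72451768, plus strand), had 224, 287 and 308 CPM as the lowest, median and highest of the 6 PMA_1002 libraries, 348, 345, 374 and 331 CPM in PMA_ethanol libraries 1 to 4, and 129.7, 139.5, 151, 121 and 116 CPM in Control libraries 1 to 5. The 3 groups did not overlap. It rose by 1.41 (SE 0.10, edgeR adjusted p = 1.25e-09) with PMA_ethanol over Control and was lower in PMA_1002 than in PMA_ethanol, at a log2 value of -0.33 (SE 0.09, edgeR adjusted p = 0.00942).

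Box C/D snoRNPs, which place methyl groups on ribosomal RNA and, with U3, take part in its cutting, had 4 genes in the list, with the largest median rise of the 6 roles that hold several genes (1.84). Fbl, the methyltransferase fibrillarin (chr7:28169710-28179269, plus strand), had 45.4, 55.9 and 60.2 CPM as the lowest, median and highest of the 6 PMA_1002 libraries, 61.2, 62.2, 70.1 and 61.9 CPM in PMA_ethanol libraries 1 to 4, and 28.6, 28.2, 31.6, 25.9 and 28.5 CPM in Control libraries 1 to 5. Every PMA_1002 library was below every PMA_ethanol library, by a narrow gap, and both groups were above Control. Fbl rose by 1.15 (SE 0.09, edgeR adjusted p = 6.02e-09) with PMA_ethanol over Control, whereas the difference of PMA_1002 from PMA_ethanol, -0.22 (SE 0.08, edgeR adjusted p = 0.0502), narrowly missed the threshold. Nop56 and Nop58, the scaffold proteins of the particle, rose by 1.86 and 1.83. Rrp9, the protein specific to the U3 snoRNP (chr9:106475963-106485424, plus strand), had 40.2, 50.7 and 56.9 CPM as the lowest, median and highest of the 6 PMA_1002 libraries, 66.3, 63.9, 61.4 and 74.5 CPM in PMA_ethanol libraries 1 to 4, and 15.4, 17.9, 19.2, 15.9 and 16.1 CPM in Control libraries 1 to 5. It was about 4-fold higher with PMA_ethanol than in Control, with no overlap between any pair of groups. The log2 fold changes of Rrp9 were 1.97 (SE 0.11, edgeR adjusted p = 6.32e-11) with PMA_ethanol over Control and -0.42 (SE 0.10, edgeR adjusted p = 0.00282) with PMA_1002 over PMA_ethanol.

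Box H/ACA snoRNPs, which convert uridine in ribosomal RNA to pseudouridine, rose least (median 1.01 over 4 genes). Dkc1, the pseudouridine synthase dyskerin (chrX:75095854-75109777, plus strand), had 71.3, 100.3 and 108 CPM as the lowest, median and highest of the 6 PMA_1002 libraries, 105, 103, 123 and 109 CPM in PMA_ethanol libraries 1 to 4, and 40.8, 39.8, 43.1, 44.1 and 48.4 CPM in Control libraries 1 to 5. PMA_1002 library 6 was the lowest of its group, yet above all Control libraries. Dkc1 rose by 1.34 (SE 0.11, edgeR adjusted p = 1.06e-08) with PMA_ethanol over Control. Nop10, a small partner of dyskerin (chr2:112261926-112263269, plus strand), had 23.2, 26.3 and 30.7 CPM as the lowest, median and highest of the 6 PMA_1002 libraries, 28.4, 28.3, 31.1 and 25 CPM in PMA_ethanol libraries 1 to 4, and 19.8, 22.7, 20.7, 18.6 and 18.7 CPM in Control libraries 1 to 5. PMA_1002 and PMA_ethanol overlapped, and Control lay below both. Nop10 rose by 0.48 (SE 0.10, edgeR adjusted p = 3.67e-04). Gar1 and Nhp2, the remaining proteins of the particle, rose by 1.10 and 0.93. In PMA_1002 compared with PMA_ethanol, 0 of these 4 genes passed in edgeR, with 0 at an unadjusted p under 0.05 and 0 in DESeq2, and their log2 differences ran from -0.20 to -0.09. The interval for Dkc1 reached -0.42 and that for Gar1 -0.45. The difference of Gar1 changed sign, to 0.011, without PMA_1002 library 6.

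Small subunit assembly factors numbered 9, with log2 fold changes of 0.86 to 2.24 for PMA_ethanol over Control. Heatr1, a large early factor that links transcription of the precursor to its processing (chr13:12395027-12440289, plus strand), had 109.6, 123 and 149 CPM as the lowest, median and highest of the 6 PMA_1002 libraries, 158, 162, 192 and 175 CPM in PMA_ethanol libraries 1 to 4, and 34.7, 38.2, 48.2, 33.3 and 38.4 CPM in Control libraries 1 to 5. All PMA_1002 libraries were below all PMA_ethanol libraries and more than 2-fold above the highest Control library. Heatr1 rose by 2.14 (SE 0.11, edgeR adjusted p = 3.26e-11) with PMA_ethanol over Control and was 0.728 times the PMA_ethanol level in PMA_1002, a log2 value of -0.46 (SE 0.10, edgeR adjusted p = 0.002) and the largest such difference of the 36. Rrp12, needed late in maturation and for export, rose most, by 2.24 (SE 0.10, edgeR adjusted p = 1.16e-11). Bysl, or bystin, which stays with the pre-ribosome into its late steps (chr17:47599331-47611492, minus strand), had 45.9, 59.3 and 60.4 CPM as the lowest, median and highest of the 6 PMA_1002 libraries, 63.9, 69.5, 63.9 and 71.4 CPM in PMA_ethanol libraries 1 to 4, and 16, 17.1, 18.8, 16.6 and 15.9 CPM in Control libraries 1 to 5. PMA_1002 libraries 1 to 5 lay within 58.1 to 60.4 CPM, and library 6 was apart from them. Bysl had the smallest adjusted p of the small subunit factors, with a rise of 1.99 (SE 0.09, edgeR adjusted p = 7.81e-12). Ltv1, a late factor that leaves before the subunit matures (chr10:13178140-13193168, minus strand), had 60.5, 67 and 77.9 CPM as the lowest, median and highest of the 6 PMA_1002 libraries, 70.4, 66.9, 78.8 and 68.8 CPM in PMA_ethanol libraries 1 to 4, and 44.2, 33.4, 39.9, 39.5 and 38 CPM in Control libraries 1 to 5. PMA_1002 libraries 1, 3 and 6 lay below the lowest PMA_ethanol library, the other 3 within the PMA_ethanol range, and all were above Control. Ltv1 rose by 0.86 (SE 0.09, edgeR adjusted p = 2.68e-07) with PMA_ethanol over Control, and its difference between PMA_1002 and PMA_ethanol, -0.06 (SE 0.09, edgeR adjusted p = 0.665), changed sign under upper-quartile scaling, at 0.023. Wdr43 and Wdr75, early factors that work with Heatr1, rose by 1.84 and 1.17, Utp20 by 1.53, Nop14 by 1.25, and Nob1, the nuclease that makes the end of 18S RNA, by 0.99.

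Large subunit assembly had 8 genes, with rises of 0.77 to 2.13. Nop2, a methyltransferase of the large ribosomal RNA and one of the genes with the E-box shown above (chr6:125131909-125144753, plus strand), had 91.7, 113 and 129.7 CPM as the lowest, median and highest of the 6 PMA_1002 libraries, 141, 155, 159 and 153 CPM in PMA_ethanol libraries 1 to 4, and 31.9, 36.7, 41.1, 28.4 and 34.6 CPM in Control libraries 1 to 5. The groups were fully apart. Nop2 rose by 2.13 (SE 0.10, edgeR adjusted p = 1.95e-11) with PMA_ethanol over Control and was lower in PMA_1002 than in PMA_ethanol, at a log2 value of -0.43 (SE 0.10, edgeR adjusted p = 0.00224). Pes1, which with Bop1 and Wdr12 forms a complex required for large subunit maturation (chr11:3963975-3980004, plus strand), had 99.8, 110.0 and 116 CPM as the lowest, median and highest of the 6 PMA_1002 libraries, 119, 127, 108 and 108 CPM in PMA_ethanol libraries 1 to 4, and 69.5, 62, 77.8, 65.7 and 65.1 CPM in Control libraries 1 to 5. PMA_1002 and PMA_ethanol overlapped. Pes1 rose by 0.77 (SE 0.08, edgeR adjusted p = 1.59e-07), less than its partners Bop1 (1.30) and Wdr12 (1.33), and did not pass between PMA_1002 and PMA_ethanol at -0.09 (SE 0.07, edgeR adjusted p = 0.368), where both partners did (Bop1 -0.35, Wdr12 -0.28). Whether the 3 partners differ from each other was not tested. Rrs1, which takes part in bringing in 5S RNA, rose by 1.96, Mrto4, a factor of the ribosomal stalk, by 1.68, Nip7 by 1.71 and Nop16 by 1.51.

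Nucleolar chaperones and helicases completed the list with 6 genes. Npm1, or nucleophosmin (chr11:33152287-33163206, minus strand), was the most abundant of the 36 genes per exon length in each group, at 159 CPM per kilobase in PMA_1002, 205 in PMA_ethanol and 113 in Control, followed by Ncl, or nucleolin, at 102, 124 and 54.3 in the same order of groups. It had 338, 443 and 496 CPM as the lowest, median and highest of the 6 PMA_1002 libraries, 516, 530.0, 628 and 509 CPM in PMA_ethanol libraries 1 to 4, and 325, 286, 288, 329 and 282 CPM in Control libraries 1 to 5. PMA_1002 libraries 1 and 6 were only slightly above the highest Control library. Npm1 rose by 0.85 (SE 0.11, edgeR adjusted p = 4.37e-06) with PMA_ethanol over Control and was lower in PMA_1002 than in PMA_ethanol, at a log2 value of -0.36 (SE 0.11, edgeR adjusted p = 0.0173). Without PMA_ethanol library 3 that difference was -0.29 and did not pass (edgeR adjusted p = 0.0716). Processed copies of Npm1 exist elsewhere in the genome and reads with several positions were counted apart from genes, so its level is uncertain. Nolc1, a chaperone of snoRNPs (chr19:46075863-46085530, plus strand), had 130.3, 163 and 178 CPM as the lowest, median and highest of the 6 PMA_1002 libraries, 187, 194, 199.5 and 203 CPM in PMA_ethanol libraries 1 to 4, and 52.7, 52.5, 65, 46.5 and 54.8 CPM in Control libraries 1 to 5. Again the 3 groups did not overlap. Nolc1 rose by 1.85 (SE 0.10, edgeR adjusted p = 5.34e-11). Ddx21, a helicase that acts in both transcription and processing of the ribosomal precursor (chr10:62580251-62602281, minus strand), had 281, 360.5 and 398 CPM as the lowest, median and highest of the 6 PMA_1002 libraries, 441, 433, 528 and 457 CPM in PMA_ethanol libraries 1 to 4, and 103, 102, 138, 117 and 115 CPM in Control libraries 1 to 5. Its Control level was exceeded about 3-fold in PMA_1002 and 4-fold in PMA_ethanol. The log2 fold changes of Ddx21 were 2.01 (SE 0.11, edgeR adjusted p = 1.31e-10) with PMA_ethanol over Control and -0.41 (SE 0.11, edgeR adjusted p = 0.00739) with PMA_1002 over PMA_ethanol. Gnl3, or nucleostemin, rose by 1.81, Ncl by 1.19 and Npm3 by 1.20.

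**Figure D3:**
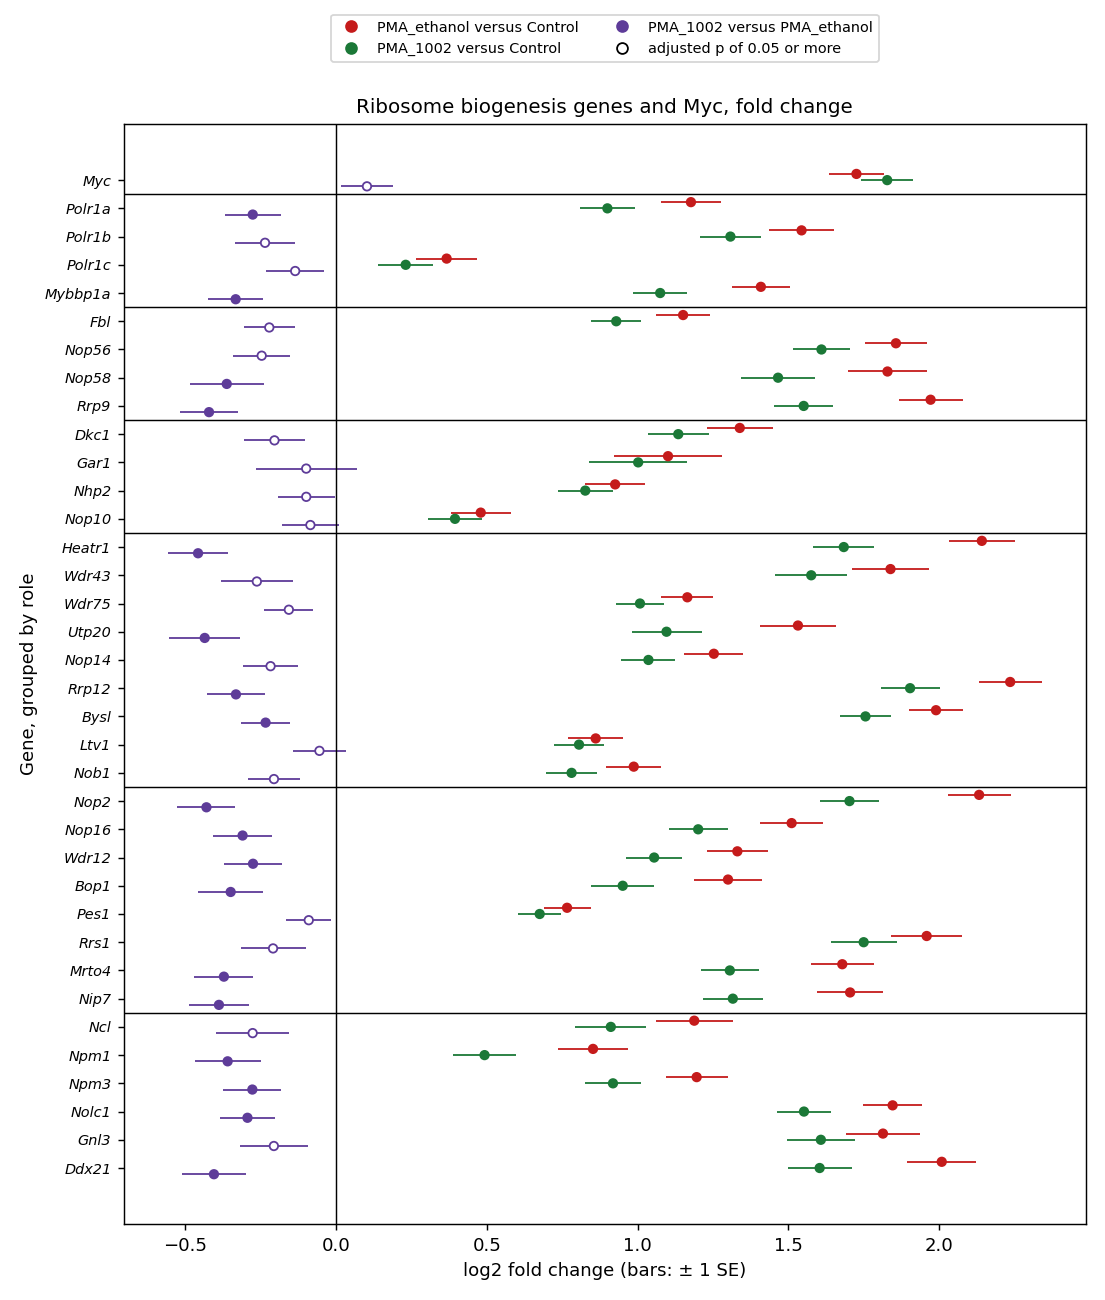
log2 fold change (x axis) with SE for the 36 genes, grouped by role, in PMA_ethanol versus Control, PMA_1002 versus Control and PMA_1002 versus PMA_ethanol; open points did not pass. Points of PMA_1002 versus Control lie left of those of PMA_ethanol versus Control except for Myc, and those of PMA_1002 versus PMA_ethanol lie between -0.46 and 0.10.

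PMA_1002 versus PMA_ethanol asks what differed once the peptide was given. Of the 36 genes, 18 were called lower, against 18.0% of all tested genes, and 0 were called higher, against 17.0%. At an unadjusted p under 0.05 edgeR gave 25 lower and 0 higher, and DESeq2 at an adjusted p under 0.05 gave 24 lower and 0 higher. The shares of all tested genes under these other rules are not given here, and the 18.0% and 17.0% do not apply to them. The median log2 fold change of the 36 was -0.27, against 0.03 over all tested genes, and 35 of 36 values were below 0. Every PMA_1002 library lay below every PMA_ethanol library for 16 genes, against 13.0% of tested genes. Leaving out PMA_1002 library 6 could not change this count of 16, because that library was the highest of its group for 0 genes. By role, the genes called lower were 6 of 8 in large subunit assembly, 4 of 6 among nucleolar chaperones and helicases, 4 of 9 in small subunit assembly, 2 of 4 in box C/D snoRNPs, 2 of 4 around RNA polymerase I and 0 of 4 in box H/ACA snoRNPs. Differences between these roles were not tested. The called genes not yet given with this difference were Polr1a (-0.28), Nop58 (-0.36), Utp20 (-0.44), Rrp12 (-0.33), Bysl (-0.23), Nop16 (-0.31), Mrto4 (-0.37), Nip7 (-0.39), Npm3 (-0.28) and Nolc1 (-0.29).

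The count of 18 rested in part on scaling and on single libraries. It was 11 with upper-quartile scaling, 12 without PMA_ethanol library 3, 15 without PMA_1002 library 6 and 21 without PMA_1002 library 2. Shares of all tested genes under these alternatives are not given here. Called lower under each of the 22 alternatives tried were 8 genes: Rrp9, Heatr1, Utp20, Rrp12, Nop2, Mrto4, Nip7 and Ddx21. Each of the other 10 lost its call under at least 1 alternative. Polr1a and Npm3 kept theirs in only 12 of the 22, and Bysl in 14. Each of these lost it without PMA_1002 library 6, among other settings (edgeR adjusted p from 0.0523 to 0.0537). Wdr12 lost its call without PMA_ethanol library 1, 2 or 3 (edgeR adjusted p from 0.0515 to 0.120) and Nolc1 with upper-quartile scaling (edgeR adjusted p = 0.0594).

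PMA_1002 versus Control asks what was left of the rise in the presence of the peptide. Of the 36 genes, 36 were called higher, against 28.4% of tested genes called higher and 26.7% called lower. Their median log2 fold change was 1.12 (-0.03 over all tested genes). At least 1.5-fold was reached by 33 genes, against 14.6% of tested genes, and 24 genes were at least 2-fold higher. Over all tested genes the upper quartile of the log2 fold change was 0.35. In 35 genes every PMA_1002 library exceeded every Control library, against 20.2% of tested genes, the exception being Polr1c. The mean of PMA_1002 lay between those of PMA_ethanol and Control for 35 genes. The share of all tested genes with this order was not counted, so it cannot be called particular to these genes. The 3 comparisons share libraries, so their values for a gene are not independent. For Rrp12 they were 2.24 for PMA_ethanol over Control, -0.33 for PMA_1002 over PMA_ethanol and 1.90 for PMA_1002 over Control. For Bysl they were 1.99, -0.23 and 1.76 in the same order.

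**Figure D4:**
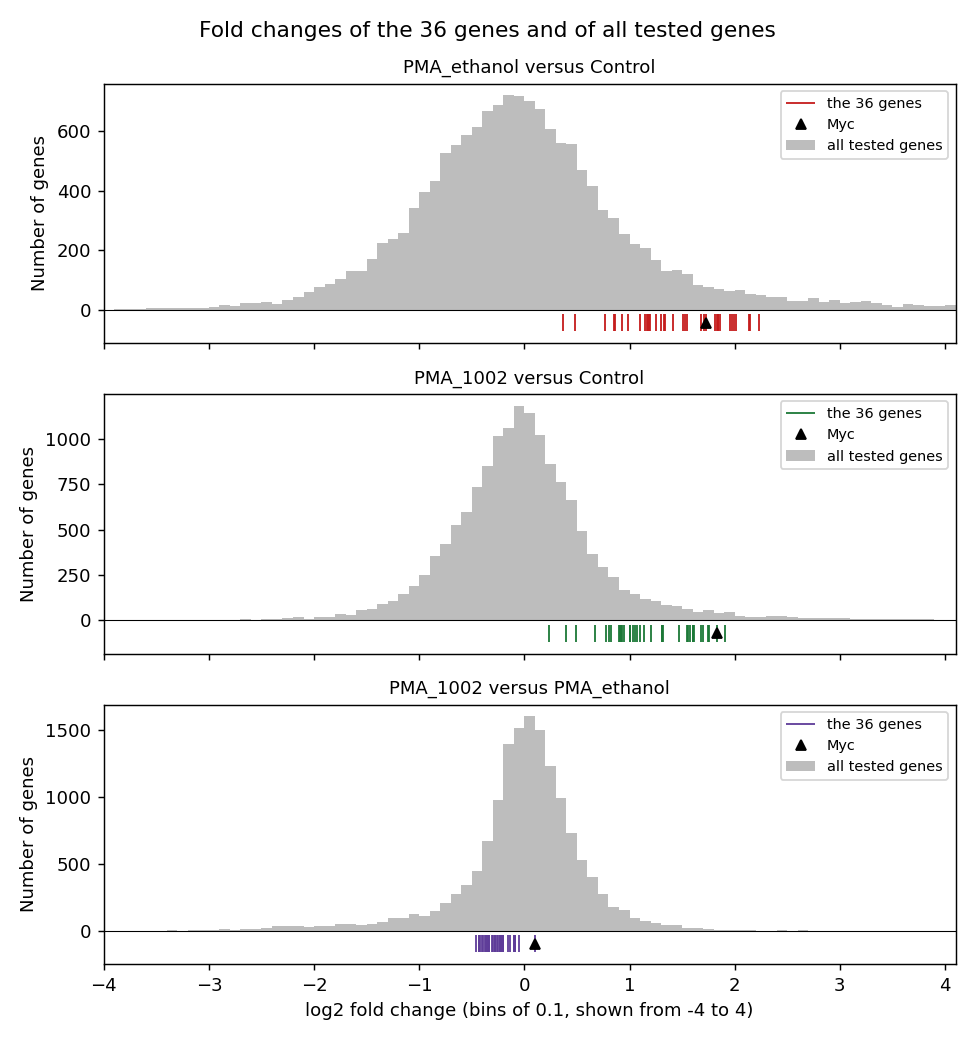
Number of tested genes (y axis) by log2 fold change (x axis, bins of 0.1) in the 3 comparisons, with ticks for the 36 genes and a triangle for Myc below the axis. The ticks lie at 0.37 to 2.24 for PMA_ethanol versus Control and at 0.23 to 1.90 for PMA_1002 versus Control, to the right of the peak of all genes, and at -0.46 to 0.10 for PMA_1002 versus PMA_ethanol, mostly just left of it.

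The rest of the pathway, read from lists of other assembly genes, moved mostly with the 36. Of 45 other small subunit factors tested, 45 rose with PMA_ethanol over Control, against 32.5% of all tested genes, with a median of 1.03 (-0.07 over all tested genes). Utp4 and Nol10, of the small subunit processome, rose by 2.28 and 1.91. Of 53 other large subunit factors, 49 rose and 4 fell (35.9% of all tested genes fell). Nifk rose by 1.59 and Mdn1, a large ATPase that strips factors from the pre-ribosome, by 1.69. Those that fell were Nop53 at -0.63 (SE 0.09, edgeR adjusted p = 9.63e-06), Nsa2 (-0.42), and Nol7 and Ddx55, which are named because they complete the 4 (-0.28 and -0.27). The place of Nol7 on the large rather than the small subunit list is uncertain, so the counts hold for the lists as drawn up. Nop53, the adaptor of the RNA exosome on the pre-ribosome, had 157, 168, 153 and 179 CPM in PMA_ethanol libraries 1 to 4, and 253, 288, 242, 255 and 241 CPM in Control libraries 1 to 5, with no overlap.

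Of 12 other genes of RNA polymerase I, 9 rose and 1 fell, against 32.5% and 35.9% of all tested genes, the shares against which the next counts are also to be read. Polr1e, a subunit, rose by 1.41 and Rrn3, the initiation factor that growth signals control, by 1.02, while Taf1b, of the promoter selectivity factor, fell by 0.30. That call was lost in DESeq2 (-0.25, DESeq2 adjusted p = 0.0782), with no filter on low counts (-0.26, edgeR adjusted p = 0.109), and when Control library 1 or PMA_ethanol library 2 or 4 was left out (edgeR adjusted p from 0.0510 to 0.0771). Of 10 snoRNP assembly genes 7 rose, among them Snu13 (1.43) and Ruvbl1 (1.09), and of 11 RNA exosome genes 6 rose, among them Dis3 (1.12) and Exosc1 (0.98). Of 12 RNAs that host small nucleolar RNAs in their introns, 11 rose, with Snhg1 at 1.42 and Zfas1 at 1.37, and Snhg18 fell (-0.63). Of 2 tested RNAs annotated on ribosomal repeat sequence 1 rose, Gm26917, by 1.04. The other, Gm42418, did not pass (-0.02, edgeR adjusted p = 0.962), with means of 837 CPM in PMA_ethanol and 850 in Control. In polyA libraries neither measures ribosomal RNA. With upper-quartile scaling the counts that rose in these lists, in the order of small subunit, large subunit, RNA polymerase I, snoRNP assembly, exosome and host RNAs, were 42, 47, 7, 7, 6 and 9. The share of all tested genes that rose with that scaling is not given here.

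In PMA_1002 compared with PMA_ethanol, 23 of 45 other small subunit factors and 23 of 53 other large subunit factors were called lower, against 18.0% of all tested genes, and 0 and 1 higher. Of the small subunit factors 0 were higher in DESeq2 or at an unadjusted p under 0.05 in edgeR. With upper-quartile scaling the lower ones numbered 11 and 15, for which the share of all tested genes is not given here. Nol10 differed most, with 63.7 to 78.5 CPM in the 6 PMA_1002 libraries and 116, 107, 124 and 111 CPM in PMA_ethanol libraries 1 to 4, and a log2 value of -0.70 (SE 0.07, edgeR adjusted p = 1.37e-06). Utp4 had a log2 value of -0.56 (SE 0.09, edgeR adjusted p = 1.27e-04), Mdn1 one of -0.54 and Eif6, which keeps the large subunit from joining too early, one of -0.48. The 1 called higher was Ddx55 (0.35). Of the other RNA polymerase I genes 2 were lower, Polr1d (-0.46) and Taf1d (-0.39, lost without PMA_ethanol library 3 or 4, edgeR adjusted p = 0.0884 and 0.0608), and of the snoRNP assembly genes 1, Snu13 (-0.49). Of the RNA exosome genes 0 passed in edgeR, where 2 were higher and 2 lower at an unadjusted p under 0.05 and DESeq2 called 1 lower. Of the host RNAs 0 passed in edgeR, where 2 were lower at an unadjusted p under 0.05 and DESeq2 called 2 lower.

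Of 13 genes of the Myc network, Max partners among them, 4 rose and 6 fell with PMA_ethanol over Control. These shares, 30.8% and 46.2%, were near the 32.5% and 35.9% of all tested genes, so the counts say nothing particular of the network. Mxd1, which competes with Myc for Max and represses transcription, had 131 to 175 CPM in the 6 PMA_1002 libraries, 602, 388, 562 and 502 CPM in PMA_ethanol libraries 1 to 4, and 63.6, 53.4, 70.8, 59.5 and 75.3 CPM in Control libraries 1 to 5. The 3 groups were far apart. Mxd1 rose by 2.99 (SE 0.13, edgeR adjusted p = 4.34e-12) with PMA_ethanol over Control, and was lower in PMA_1002 than in PMA_ethanol, at a log2 value of -1.71 (SE 0.12, edgeR adjusted p = 4.08e-08). Mxd4, a repressor of the same family, ran the other way, with 79.8 to 121 CPM in the 6 PMA_1002 libraries, 54.9, 63.8, 57.7 and 57.9 CPM in PMA_ethanol libraries 1 to 4, and 254, 245, 206, 237 and 239.9 CPM in Control libraries 1 to 5. It fell by 2.01 (SE 0.11, edgeR adjusted p = 1.29e-10) with PMA_ethanol over Control and was higher in PMA_1002 than in PMA_ethanol by 0.73 (SE 0.11, edgeR adjusted p = 5.56e-05).

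Mycl, a second Myc family gene, had 10.3 to 30 CPM in the 6 PMA_1002 libraries, 3.18, 14.1, 2.49 and 5.29 CPM in PMA_ethanol libraries 1 to 4, and 97.5, 100.1, 99.6, 96.6 and 109 CPM in Control libraries 1 to 5. Its PMA libraries were all far below Control, and PMA_1002 and PMA_ethanol overlapped. Mycl fell by 3.78 (SE 0.43, edgeR adjusted p = 2.91e-06) with PMA_ethanol over Control, and was higher in PMA_1002 than in PMA_ethanol by 1.16 (SE 0.40, edgeR adjusted p = 0.0385). That last call was lost when any one of PMA_ethanol libraries 1, 3 and 4 or PMA_1002 libraries 2, 3 and 6 was left out (edgeR adjusted p from 0.0517 to 0.1102). It was also lost with no filter on low counts, with only the 2 groups compared and with hair follicle level as a covariate (edgeR adjusted p = 0.0880, 0.0739 and 0.0697). Mxi1 fell by 0.63, Mnt by 0.41 and Fbxw7, part of a ubiquitin ligase that marks Myc for destruction, by 0.48 with PMA_ethanol over Control. Mxd3 fell by 1.21 (SE 0.37) in the same comparison, at low levels. Its means were 1.20 CPM in PMA_ethanol and 3.05 in Control, and these groups overlapped. Mlx and Zbtb17, the Myc partner Miz-1, rose by 0.70 and 0.45, the rise of Zbtb17 being lost with upper-quartile scaling (0.21, edgeR adjusted p = 0.0702), and Max by 0.23, which turned to -0.012 with upper-quartile scaling. In PMA_1002 compared with PMA_ethanol, Fbxw7 was higher by 0.62 (SE 0.11, edgeR adjusted p = 2.89e-04) and Zbtb17 lower, at -0.29 (SE 0.10, edgeR adjusted p = 0.0234). The call of Zbtb17 was lost without PMA_ethanol library 4, with upper-quartile scaling and with no filter on low counts (edgeR adjusted p = 0.0978, 0.0893 and 0.0590). These genes carry values of RNA, not of protein.

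**Figure D5:**
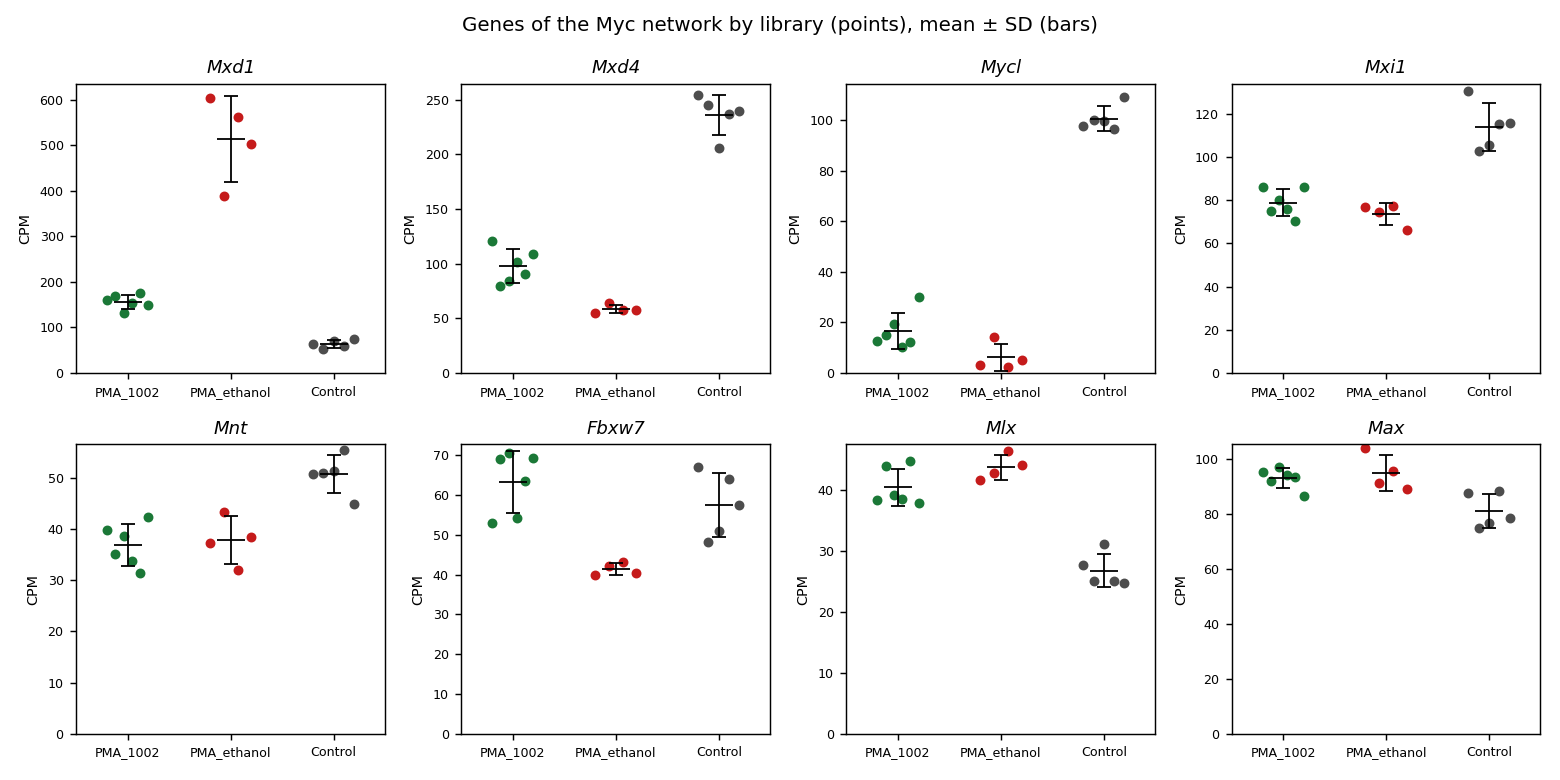
CPM (y axis) of 8 genes of the Myc network in each library (points) with mean ± SD (bars), for PMA_1002, PMA_ethanol and Control. Mxd1 is highest and Mxd4 and Mycl lowest in PMA_ethanol, with the PMA_1002 mean of these 3 genes between those of the other groups.

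Genes known as Myc targets outside the nucleolus, 25 in all, rose in 23 cases with PMA_ethanol over Control and fell in 1, against 32.5% and 35.9% of all tested genes. Srm, spermidine synthase, rose by 1.65 (SE 0.09, edgeR adjusted p = 8.66e-11), Eif5a, a translation factor, by 1.42 (SE 0.08, edgeR adjusted p = 1.72e-10), and Ccnd2, a cyclin, fell by 0.38. In PMA_1002 compared with PMA_ethanol 11 were lower and 1 higher, Ccnd2 (0.27), against 18.0% and 17.0% of all tested genes. The call of Ccnd2 was lost in DESeq2 (DESeq2 adjusted p = 0.0797) and when any one of Control library 4, PMA_ethanol libraries 1 and 2 or PMA_1002 libraries 1 to 6 was left out (edgeR adjusted p from 0.0501 to 0.174). Odc1, which makes the first polyamine, had 201 to 373 CPM in the 6 PMA_1002 libraries, 921, 518, 674 and 638 CPM in PMA_ethanol libraries 1 to 4, and 43.7, 52, 63.6, 41.6 and 41.8 CPM in Control libraries 1 to 5. No 2 groups overlapped, and the log2 value of PMA_1002 over PMA_ethanol was -1.25 (SE 0.19, edgeR adjusted p = 1.11e-04).

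Markers of cell types and of the cell cycle were measured beside these genes, and their part in the results was not tested. Of 8 proliferation genes, 0 rose and 7 fell with PMA_ethanol over Control (32.5% and 35.9% of all tested genes), with 0 higher at an unadjusted p under 0.05 and 0 in DESeq2. In PMA_1002 compared with PMA_ethanol 0 of the 8 passed in edgeR, with 3 higher at an unadjusted p under 0.05 and 0 called in DESeq2. Their summed CPM ran from 175 to 271 in PMA_1002, 113 to 227 in PMA_ethanol and 231 to 285 in Control. Of 9 neutrophil markers 8 were tested, 8 rose with PMA_ethanol over Control (32.5% of all tested genes) and 8 were lower in PMA_1002 than in PMA_ethanol (18.0%). Summed CPM of the neutrophil list were 354 to 649 in PMA_1002, 1304 to 2807 in PMA_ethanol and 87.6 to 110.1 in Control, and Ly6g, the defining marker that was not tested, averaged 0.114 CPM in PMA_1002 and 0.501 in PMA_ethanol. Monocyte and macrophage markers summed to 1050 to 1405 CPM in PMA_1002, 2070 to 2451 in PMA_ethanol and 566 to 759 in Control. Of these 10 markers, 6 rose, 1 fell and 3 did not pass with PMA_ethanol over Control (32.5% and 35.9% of all tested genes rose and fell). In PMA_1002 compared with PMA_ethanol 6 were lower and 1 higher (18.0% and 17.0%). Cd14 averaged 672 CPM in PMA_ethanol and 11.7 in Control, while C1qa fell by 0.70. Basal keratinocyte markers had mean log2 CPM of 9.76 to 9.92 in PMA_1002, 9.13 to 9.36 in PMA_ethanol and 9.80 to 10.1 in Control, and suprabasal markers 9.58 to 9.96, 8.54 to 9.13 and 9.19 to 9.72 in the same order. Markers of keratinocytes, which define skin, were thus high in every library, but many differed between groups. With PMA_ethanol over Control, 4 of 8 basal markers fell and 1 rose. Of 7 suprabasal markers, 5 fell and 1 rose (35.9% and 32.5% of all tested genes fell and rose). In PMA_1002 compared with PMA_ethanol, 7 of the 8 and 6 of the 7 were higher and 0 lower (17.0% and 18.0%). Hair follicle markers varied within groups, with mean log2 CPM from -0.07 to 5.20 in PMA_1002, -0.23 to 6.77 in PMA_ethanol and 1.89 to 6.94 in Control. With that level as a covariate, 36 of the 36 genes were still called higher in both comparisons with Control, and 16 were called lower in PMA_1002 than in PMA_ethanol. The share of reads with several positions was 17.7% ± 0.810 in PMA_1002, 19.2% ± 0.663 in PMA_ethanol and 17.1% ± 0.791 in Control (SD, n = 6, 4 and 5). PMA_ethanol and Control differed in it (two-sided exact permutation p = 0.00794, the smallest possible, adjusted over 15 such tests 0.0298), while for PMA_1002 and PMA_ethanol the difference did not pass after adjustment (exact permutation p = 0.0238, adjusted 0.0510). The 10 most abundant genes took 7.03% ± 0.599 of reads in PMA_1002, 5.04% ± 0.573 in PMA_ethanol and 8.25% ± 0.280 in Control. That share differed between PMA_ethanol and Control (exact permutation p = 0.00794), between PMA_1002 and PMA_ethanol (exact permutation p = 0.00476, the smallest possible) and between PMA_1002 and Control (exact permutation p = 0.00649), each at 0.0298 after adjustment.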

How the data were processed

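Ear RNA was sequenced in 15 libraries made with a stranded kit after polyA purification, per the labels' protocols. Per the submitters' processing notes, the authors used FastQC 0.11.5, MultiQC 0.8, STAR 2.5 and HTSeq on GRCm38, and deposited 1 raw count per gene and library. The sources used here name neither strand option nor annotation release, so overlapping and antisense genes are uncertain. Rows that name no gene (28.5% to 32.9% of reads per library) were left out. Symbols came from GENCODE M21 for 48435 of 48795 identifiers.

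Counts were fitted with edgeR 4.0.16 in R 4.3.3 (TMM, genes with enough reads by group, robust quasi-likelihood, all 15 libraries). With that filter 14991 genes were tested. An SE is the log2 fold change over the square root of F, calls needed an adjusted p under 0.05, and levels are CPM (log2 CPM with a prior count of 2). The script was tested on simulated data. Repeated libraries were looked for in 31 pairs, whose chi-square per degree of freedom was at least 2.93, so none was merged. The members and gene lists were chosen with earlier results of these data known. Genes given in full are Myc and, for each role, those with the smallest and the largest adjusted p in PMA_ethanol versus Control and the smallest in PMA_1002 versus PMA_ethanol. Of the wider lists, up to 2 called genes per direction are named by adjusted p, and of the Myc network every called gene. Alternatives were other scalings, no filter on low counts, DESeq2 1.42.0, 2 groups only, a replicate block, a hair follicle covariate and leaving out each library. Riok2, Snhg4 and Rn18s-rs5 were not analysed here.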

Additional observations from a re-analysis of the deposited data

Results flagged for a closer look

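Within a group of 4 to 6 libraries, 1 library stood far from the others in 7 of 108 gene and group pairs, where chance gives about 1 in 20, or 5.4. In PMA_1002, Bysl was 45.9 CPM in library 6, against 58.1 CPM in the nearest library. In PMA_ethanol, library 3 had 70.1 CPM of Fbl (nearest 62.2), 79.2 CPM of Mrto4 (nearest 67.1) and 1564 CPM of Ncl (nearest 1203). In Control, library 3 had 57.0 CPM of Utp20 (nearest 46.3), 49.9 CPM of Bop1 (nearest 38.2) and 28.3 CPM of Nip7 (nearest 23.9).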

How the results depend on the processing

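Over the 36 genes and 22 alternatives, 791 of 792 values kept direction and call in PMA_ethanol versus Control and 785 in PMA_1002 versus Control, the 1 and 7 exceptions being Polr1c. In PMA_1002 versus PMA_ethanol 716 did, 51 lost and 22 gained a call, and 3 changed sign. Upper-quartile scaling moved the median of all genes to -0.30 in PMA_ethanol versus Control, 0.11 in PMA_1002 versus PMA_ethanol and -0.19 in PMA_1002 versus Control, and the medians of the 36 genes to 1.22 and 0.96 in the comparisons with Control. Relative to all genes, and in the same order, the medians of the 36 were 1.53, -0.30 and 1.14 under TMM, DESeq2 and upper-quartile scaling alike. A change of scaling shifts all genes by nearly the same amount, so these relative values could hardly differ and are no check on scaling. With upper-quartile scaling 11 genes were lower in PMA_1002 than in PMA_ethanol, Ltv1 turned to 0.023, and Max to -0.012 in PMA_ethanol versus Control. With the replicate block 8 were lower and Gar1 turned to 0.030. The block rests on numbers that did not pair the libraries: same-numbered libraries correlated at a median of -0.27, -0.12 and -0.24 in the 3 comparisons, and best with their own number in 0 of 4, 1 of 4 and 0 of 5 cases. Leaving out 1 library gave medians of 1.40 to 1.49 (PMA_ethanol versus Control), -0.30 to -0.21 (PMA_1002 versus PMA_ethanol) and 1.07 to 1.19 (PMA_1002 versus Control), 12 to 21 genes lower in PMA_1002 than in PMA_ethanol, and Gar1 at -0.18 to 0.011 there. The cause of these shifts was not tested. Depth limits the smallest differences: PMA_ethanol library 3 held only 75 reads of Nop10.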
